A study of Mus musculus with 2 samples.

Results

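The BCL2 family decides whether a cell opens its mitochondria to apoptosis, and 10 of its mouse genes are described here by the open chromatin around them in spleen. They are 3 survival genes (Bcl2, Mcl1 and Bcl2l1) and 7 death genes, of which 2 are pore-forming effectors (Bax and Bak1) and 5 are BH3-only genes (Bcl2l11, Bbc3, Pmaip1, Bid and Bad). They were chosen by name, as 10 of 21938 protein-coding genes of GENCODE release M21, and not by a rule on any measured value. Earlier results of these data were known when they were listed. Every peak overlapping a gene body or the 50 kb on each side was taken. That gave 207 of 79246 peaks in animal 1 and 198 of 77231 peaks in animal 2. Peaks within 1 kb of an annotated transcription start site (TSS) of the gene were called own promoter. Of the others, peaks within 1 kb of another protein-coding gene's TSS were kept apart and the rest were called distal. A peak within 1 kb of TSSs of both a member and another gene thus counted as own promoter.

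The study measured DNase I hypersensitivity by sequencing (DNase-seq), in which the enzyme cuts open chromatin and the density of cuts marks regulatory DNA. All samples formed 1 group of 2 animals: whole spleen from male B6CASTF1/J mice aged 2 months, F1 hybrids of C57BL/6J and CAST/EiJ, with no treatment named in the labels. Each animal carries a C57BL/6J and a CAST/EiJ copy of every autosomal gene, and the deposited peaks do not separate the copies. The values below are therefore a description of 2 animals, with no contrast between conditions and no test.

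As background, BCL2, MCL1 and BCL-XL (the protein of Bcl2l1) hold the effectors BAX and BAK in check at the outer mitochondrial membrane. BH3-only proteins such as BIM (Bcl2l11), PUMA (Bbc3), NOXA (Pmaip1), BID and BAD relieve that hold or act on the effectors, after which pores form and cytochrome c leaves the mitochondria. In lymphocytes, which fill much of the spleen, the balance between these genes is known to set how long a cell lives, and BIM and MCL1 are well known for their part in it.

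The strongest own promoter peaks of 6 members are printed first because they hold the letters on which the description of the promoters rests. They were read from the C57BL/6J reference (GRCm38.p6, the mm10 build of the files) 5′ to 3′ along the gene, leaving out bases in an annotated UTR. Capitals mark bases that lay inside a deposited footprint, a short stretch shielded from cutting, in both animals. The regions were chr3:95658601-95658787 (+) for Mcl1, chr2:152831261-152831500 (-) for Bcl2l1, chr7:45466899-45467000 (-) for Bax, chr2:128125801-128126037 (+) for Bcl2l11, chr7:16309421-16309615 (+) for Bbc3 and chr6:120916854-120916980 (-) for Bid.
Mcl1 promoter: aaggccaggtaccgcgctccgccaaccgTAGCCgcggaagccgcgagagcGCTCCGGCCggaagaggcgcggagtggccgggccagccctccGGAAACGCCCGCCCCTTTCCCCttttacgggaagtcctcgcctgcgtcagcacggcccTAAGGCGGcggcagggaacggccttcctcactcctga
Bcl2l1 promoter, in the first intron: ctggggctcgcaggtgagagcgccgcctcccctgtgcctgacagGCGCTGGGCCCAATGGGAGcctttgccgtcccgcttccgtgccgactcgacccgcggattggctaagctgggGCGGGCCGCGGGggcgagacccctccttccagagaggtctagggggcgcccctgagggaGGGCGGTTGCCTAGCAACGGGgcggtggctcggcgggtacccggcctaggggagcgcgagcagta
Bax promoter: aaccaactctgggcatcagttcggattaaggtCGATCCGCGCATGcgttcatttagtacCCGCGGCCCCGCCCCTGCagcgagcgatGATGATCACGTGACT
Bcl2l11 promoter: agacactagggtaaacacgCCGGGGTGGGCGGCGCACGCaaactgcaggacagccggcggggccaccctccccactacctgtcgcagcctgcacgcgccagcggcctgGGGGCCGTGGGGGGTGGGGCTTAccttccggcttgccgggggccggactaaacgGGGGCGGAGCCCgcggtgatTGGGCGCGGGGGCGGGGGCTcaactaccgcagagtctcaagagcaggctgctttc
Bbc3 promoter, at an internal TSS: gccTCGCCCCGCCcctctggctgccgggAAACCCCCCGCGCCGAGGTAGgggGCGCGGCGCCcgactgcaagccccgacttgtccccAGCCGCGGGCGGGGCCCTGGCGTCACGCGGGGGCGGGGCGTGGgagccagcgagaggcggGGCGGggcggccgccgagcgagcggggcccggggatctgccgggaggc
Bid promoter: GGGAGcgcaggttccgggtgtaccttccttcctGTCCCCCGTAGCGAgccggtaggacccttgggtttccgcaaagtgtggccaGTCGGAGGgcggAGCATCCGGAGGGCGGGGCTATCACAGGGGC

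In all 6 stretches the SP/KLF letters (GGGCGG, read on both strands) lay at least in part inside capitals. The 6 are a selection, so this count does not describe the family. Of the strongest own promoter peaks of all 10 members, 8 in animal 1 and 7 in animal 2 held these letters in their central 200 bp. Among those of all genes 60.7% and 61.9% did. Bcl2l11 had 3 copies of these letters wholly in capitals and Bbc3 had 2. The Bax stretch joined them to NRF1 letters (GCGCATGC), of which 7 of 8 bases were capitals, and to an E-box (CACGTG) wholly in capitals close to the start of the gene. The Bcl2l1 stretch held NFY letters (CCAAT) inside its 5′-most capital run.

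The peak lists and footprints of the members, like all others, came from libraries of similar size. The authors' longer peak list held 79246 and 77231 peaks in animals 1 and 2, and the footprint files held 211394 and 215907 footprints. The height of a peak is the authors' signal, a density of DNase cuts, and its smallest step corresponded to 139.6 and 147.3 M cuts in animals 1 and 2 if a height counts cuts per M. On that reading each member peak held at least 48 cuts in animal 1 and 57 in animal 2. Heights were lower in animal 1 across the genome, with a median log2 ratio of animal 1 over animal 2 of -0.27 over 13116 genes with a promoter peak in both. Of marker lists for the tissue, those open at the promoter in both animals were 8 of 8 for B cells (median height 7.16), 5 of 7 for T cells (median 1.69), 3 of 5 for red pulp macrophages (median 0.561), and 2 of 4 for spleen stroma (Col1a1 and Tlx1, median 1.73). Among T cell markers, Cd4 lacked a peak in both and Tcf7 was open in animal 2 alone. Among red pulp macrophage markers, Adgre1 lacked a peak in both and Csf1r was open in animal 1 alone. Nkx2-5 and Pdgfrb of the stroma list lacked one in both. The count open in both animals was 0 of 4 for neutrophils and 1 of 6 for other tissues (Apob, at 0.446). For erythroid cells it was 0 of 4, with Klf1 open in animal 2 alone. The members are expressed in many cell types, so in whole spleen more cells with an open site and a more open site in each cell cannot be told apart.

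All 10 members had an own promoter peak in both animals, where 61.4% of protein-coding genes had one in animal 1, 62.6% in animal 2 and 59.8% in both. Their strongest own promoter peaks ranged over 4.05 to 13.6 in animal 1 and 4.77 to 17.5 in animal 2. The median over genes open in both animals was 5.82 in animal 1 and 7.0 in animal 2. The members' median was 8.86 in animal 1 and 11.1 in animal 2, above that of the open genes.

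**Figure D1:**
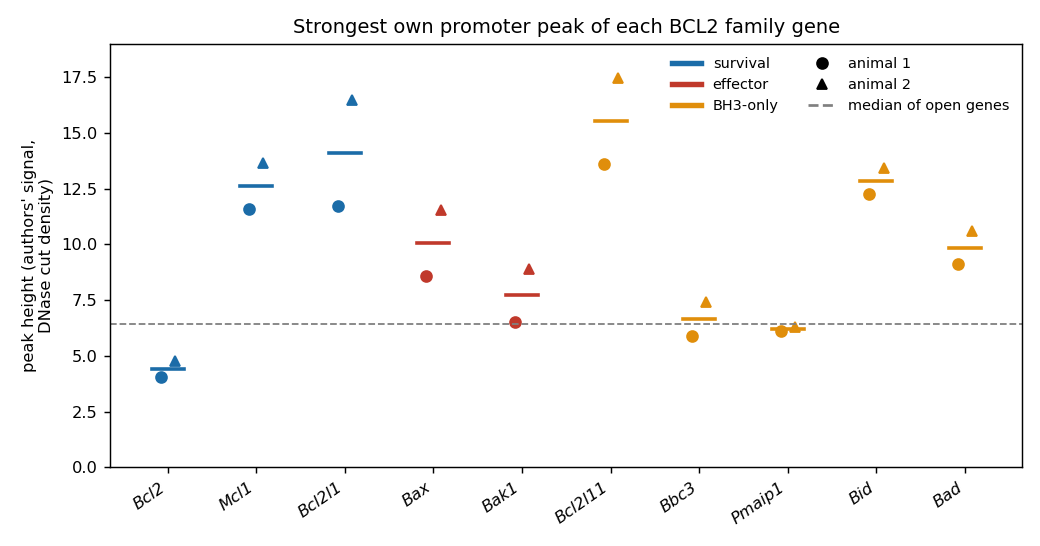
Height of the strongest own promoter peak (authors' signal, y axis) of each member, with survival genes left of effectors and BH3-only genes. Circles are animal 1, triangles animal 2, bars their mean, and the dashed line is the median of the mean height over 13116 open genes (6.42). Bcl2l11 is highest in both animals and Bcl2 lowest, with every annotated TSS counted.

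By mean height the order was Bcl2l11, Bcl2l1, Bid, Mcl1, Bax, Bad, Bak1, Bbc3, Pmaip1 and Bcl2. Pooled over the animals, 3 of 9 neighbouring pairs had values that did not overlap between genes: Mcl1 over Bax, Bad over Bak1, and Pmaip1 over Bcl2. Animal 1 was lower across the genome, which widens these ranges. Within each animal, 5 of 9 pairs kept the same order, those 3 together with Bcl2l11 over Bcl2l1 and Bak1 over Bbc3. The order of the other pairs turned round between the animals.

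The survival genes held both a pair of high promoters and the lowest promoter of the family. Their median own promoter height was 11.6 in animal 1 and 13.7 in animal 2, against 8.58 and 10.6 for the death genes. The log2 difference of the medians, survival minus death, was 0.40 ± 0.0448 (SD, n = 2 animals). The ranges overlapped in both animals, since the 3 survival genes ran from 4.05 to 11.7 in animal 1 and from 4.77 to 16.5 in animal 2, and the 7 death genes from 5.89 to 13.6 and from 6.31 to 17.5. With 3 genes against 7, the difference of medians rests on which gene is in the middle.

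Mcl1 (chr3:95658788-95663176, plus strand) encodes a short-lived survival protein that many lymphocytes need. Its TSS peak (chr3:95658601-95658840) had a height of 11.6 in animal 1 and 13.7 in animal 2, mean 12.6 ± 1.48 (SD, n = 2), at percentile 82.1 of open genes. A smaller peak followed in its intron, with heights of 4.05 in animal 1 and 3.93 in animal 2. The log2 ratio of animal 1 over animal 2 was -0.24 at the TSS and 0.04 in the intron. By the mean of the animals, Mcl1 also had the densest distal landscape of the 10 members. It had 16 distal peaks in animal 1 and 14 in animal 2 over a window of 104.4 kb. In animal 1 alone Bak1 was denser, with 19 distal peaks over 109.2 kb, against 11 in animal 2. The mean density of Mcl1 was 14.4 per 100 kb and that of Bak1 13.7. For Mcl1 this was at percentile 98.7 of all protein-coding genes, whose median was 2.58. All 17 distal sites of Mcl1 lay outside annotated protein-coding genes, and other gene types were not looked at.

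The distal sites of Mcl1 formed clusters on both sides of the gene. Downstream, 6 sites found in both animals lay between 13.8 and 17.2 kb from the most 5′ TSS. The highest of them, at 15.6 kb, had heights of 7.79 in animal 1 and 7.01 in animal 2. Upstream, a peak at 13.3 kb had heights of 5.29 in animal 1 and 6.61 in animal 2 and a peak at 6.05 kb had heights of 3.80 in animal 1 and 3.88 in animal 2. The downstream peak was higher in animal 1, while the 13.3 kb peak was lower in animal 1, as were 66.2% of all shared distal peaks. The downstream peak is printed because 1 of its 3 shared footprints held the STAT letters (TTCNNNGAA). Of all distal footprints, 0.372% in animal 1 and 0.383% in animal 2 held them. Among distal member footprints 3 of 265 in animal 1 and 2 of 254 in animal 2 did, too few to compare. In the 200 bp around the midpoint, 5.83% of all distal peaks of animal 1 and 5.11% of animal 2 hold them. The peak also holds RUNX, SP/KLF, NFY, E2A and IRF letters, all outside its shared footprints. The region is chr3:95674241-95674500 (+), with capitals as before.
Mcl1 distal, downstream: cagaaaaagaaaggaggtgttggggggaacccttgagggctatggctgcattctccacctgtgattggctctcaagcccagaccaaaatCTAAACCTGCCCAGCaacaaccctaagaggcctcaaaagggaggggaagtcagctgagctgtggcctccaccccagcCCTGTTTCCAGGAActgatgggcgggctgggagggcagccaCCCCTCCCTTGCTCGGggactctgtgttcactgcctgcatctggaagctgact

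Bcl2l1 (chr2:152780668-152831728, minus strand) encodes the survival protein BCL-XL. Its strongest peak lay not at the most 5′ TSS but in the first intron, 338 bp downstream, with heights of 11.7 in animal 1 and 16.5 in animal 2, mean 14.1 ± 3.35 (SD, n = 2). The peak over the most 5′ TSS had heights of 8.89 in animal 1 and 10.6 in animal 2. Both were lower in animal 1, the intronic one by 0.49 on the log2 scale and the TSS one by 0.25. By its intronic peak alone, Bcl2l1 was at percentile 87.0 of open genes. An ETS match (CCGGAAG) lay in a footprint of animal 1 at the TSS peak.

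Beyond the promoter, Bcl2l1 had 12 distal peaks in each animal, 7.94 per 100 kb of its 151.1 kb window. An intronic site 5.79 kb downstream of the most 5′ TSS had heights of 4.02 in animal 1 and 2.70 in animal 2. A site 65.1 kb downstream, beyond the 3′ end of the gene, had heights of 2.77 in animal 1 and 4.37 in animal 2. These are the strongest distal sites of the gene and they went opposite ways between the animals: the intronic one was higher in animal 1 by 0.57 on the log2 scale and the far one was lower in animal 1 by 0.66.

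Bcl2 (chr1:106538178-106714274, minus strand), the founding survival gene of the family, had the lowest promoter of the 10 when every annotated TSS was counted. With the most 5′ TSS of each gene only, Bbc3 was lower, at a mean of 1.01 against 4.09 for Bcl2. Its own promoter height was 4.05 in animal 1 and 4.77 in animal 2, mean 4.41 ± 0.513 (SD, n = 2), at percentile 36.8 of open genes. These values came from different peaks. The peak over the TSS (chr1:106713961-106714500) was 4.05 in animal 1 and 4.14 in animal 2, and a peak in the coding exon 1.75 kb downstream was 3.74 in animal 1 and 4.77 in animal 2. The TSS site was nearly equal in height in both animals, yet 9 footprints lay in it in animal 1 and 0 in animal 2, where the deposited peak covered a short stretch of it only. Of those in animal 1, 1 held the CRE letters (TGACGT), 127 bp upstream of the TSS.

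The long Bcl2 gene carried most of its sites far from its promoter. Its window of 276.1 kb held 17 distal peaks in animal 1 and 21 in animal 2, at 6.88 per 100 kb, and 17 of the 23 distal sites lay inside Bcl2 itself. The distal site 202.5 kb downstream of the most 5′ TSS, beyond the 3′ end of the gene, had heights of 4.17 in animal 1 and 5.72 in animal 2. That was above the gene's own promoter in both animals. An intronic site at 169.3 kb had heights of 3.57 in animal 1 and 4.21 in animal 2, and a site 3.15 kb upstream of the TSS had 2.76 in animal 1 and 4.07 in animal 2. Of 4 further intronic sites between 144.5 and 165.0 kb, 3 were higher in animal 1, with heights of 2.41, 1.81 and 2.22 in animal 1 against 1.70, 1.24 and 1.88 in animal 2. The other, at 145.2 kb, had 0.967 in animal 1 and 1.15 in animal 2. The footprint of the site at 144.5 kb held OCT letters (ATGCAAAT) in both animals.

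The effectors had promoters in the middle of the family and close to other genes. Bax (chr7:45461697-45466898, minus strand), whose protein moves to mitochondria when activated, had a peak over its TSS (chr7:45466801-45467000) with heights of 8.58 in animal 1 and 11.6 in animal 2, mean 10.1 ± 2.11 (SD, n = 2). Only 4 distal peaks in each animal fell in its window of 105.2 kb, which holds 9 other protein-coding genes. The highest peak of that window was at the Ruvbl2 promoter, with heights of 22.6 in animal 1 and 27.0 in animal 2. The strongest distal site of Bax, 4.18 kb upstream of its most 5′ TSS, had heights of 2.41 in animal 1 and 3.26 in animal 2.

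Bak1 (chr17:27019810-27029009, minus strand), whose protein sits in the mitochondrial membrane from the start, had a peak 369 bp downstream of its most 5′ TSS with heights of 6.54 in animal 1 and 8.90 in animal 2, mean 7.72 ± 1.67 (SD, n = 2). That peak also lies 519 bp from a TSS of Ggnbp1. PU.1 letters (GAGGAAGT) lay in a footprint of it in both animals, and IRF letters (GAAA, any 2 bases, GAAA) in one of the intronic peak at 1.42 kb, whose heights were 1.88 in animal 1 and 1.40 in animal 2. The Bak1 window differed most between the animals in its count of distal peaks, 19 in animal 1 and 11 in animal 2. The strongest distal site of its window, 49.4 kb downstream in introns of Zbtb9 and Ggnbp1, was nearly equal in the animals, with heights of 4.43 in animal 1 and 4.16 in animal 2. The sites seen only in animal 1 were low, between 0.602 and 0.910.

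Bcl2l11 (chr2:128126038-128162547, plus strand) encodes BIM, the BH3-only protein known for removing self-reactive lymphocytes. It had the highest promoter of the family. Its TSS peak (chr2:128125801-128126080) had heights of 13.6 in animal 1 and 17.5 in animal 2, mean 15.5 ± 2.71 (SD, n = 2), at percentile 90.8 of open genes. A second peak 1.43 kb downstream, near an internal TSS in the first intron, had heights of 8.80 in animal 1 and 10.4 in animal 2. No other gene's promoter peak lay in its window of 136.5 kb. It had 16 distal peaks in animal 1 and 14 in animal 2, all well below the promoter. The highest distal site, 78.2 kb downstream, had heights of 2.79 in animal 1 and 3.12 in animal 2, and the next, in an intron of Acoxl 31.7 kb upstream, had 2.42 in animal 1 and 3.01 in animal 2.

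Bbc3 (chr7:16308393-16318205, plus strand) encodes PUMA, a BH3-only protein best known as a target of p53. Its strongest peak was not at the most 5′ TSS, where heights were 0.895 in animal 1 and 1.13 in animal 2. It lay 1.14 kb downstream at an internal TSS, with heights of 5.89 in animal 1 and 7.41 in animal 2, mean 6.65 ± 1.07 (SD, n = 2). Around its 4 annotated TSSs, 10 own promoter peaks in each animal ran from chr7:16308581 to chr7:16314180 in animal 1 and from chr7:16308616 to chr7:16314220 in animal 2, covering 3335 bp in animal 1 and 2311 bp in animal 2. They held 28 footprints in animal 1 and 29 in animal 2, the most of any member's own promoter. Most of the 10 were low, and all but 3 of the sites lay below 1.5 in both animals.

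The strongest distal site of the whole family lay upstream of Bbc3. At 13.4 kb upstream the heights were 8.98 in animal 1 and 9.85 in animal 2, above the gene's own promoter in both animals. Sites at 12.8, 11.4 and 8.56 kb upstream had heights of 3.75, 5.92 and 4.58 in animal 1 and 5.09, 7.94 and 5.57 in animal 2. All 4 lay outside annotated protein-coding genes and were present in both animals. The Ccdc9 promoter, 22.1 kb upstream, was higher still, with 17.2 in animal 1 and 22.1 in animal 2. The 13.4 kb site is printed from chr7:16294841-16295060 (+), with its 1 stretch of bases inside footprints of both animals in capitals. No pair of p53 half-sites (the standard consensus without mismatch, with a spacer of at most 13 bases) was found in it. Only 0.0587% of all distal peaks of animal 1 hold such a pair in their central 200 bp. A search this strict cannot tell whether a looser p53 site is present here or at the Bbc3 promoter.
Bbc3 distal, upstream: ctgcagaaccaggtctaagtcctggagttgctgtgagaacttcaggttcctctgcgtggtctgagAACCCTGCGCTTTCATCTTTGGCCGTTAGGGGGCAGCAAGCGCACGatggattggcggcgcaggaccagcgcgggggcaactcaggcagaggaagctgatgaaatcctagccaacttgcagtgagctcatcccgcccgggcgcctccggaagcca

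Pmaip1 (chr18:66458533-66465565, plus strand) encodes NOXA, which binds MCL1 above other survival proteins. Its TSS peak had heights of 6.12 in animal 1 and 6.31 in animal 2, mean 6.22 ± 0.134 (SD, n = 2). It lies in a window of 107.0 kb with no other protein-coding gene. CRE letters lay in a footprint about 14 bp downstream of its most 5′ TSS in both animals. Its distal peaks, 9 in animal 1 and 8 in animal 2, were all low, the highest at 47.9 kb upstream with heights of 2.23 in animal 1 and 2.44 in animal 2.

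Bid (chr6:120891930-120916853, minus strand) encodes a protein that caspase-8 cuts to pass a death receptor signal to mitochondria. Its TSS peak (chr6:120916761-120916980) had heights of 12.3 in animal 1 and 13.4 in animal 2, mean 12.9 ± 0.819 (SD, n = 2), at percentile 83.0 of open genes. An intronic site 1.70 kb downstream had heights of 3.89 in animal 1 and 4.79 in animal 2. Next to it, at 1.44 kb, a peak of height 2.34 was listed in animal 2 only. Of its 11 distal sites, 10 lay in introns, 7 of the 11 in Bid itself.

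Bad (chr19:6941861-6951899, plus strand), whose protein is held inactive by phosphorylation under survival signals, sat in the most crowded window. It holds 14 other protein-coding genes in 110.0 kb, and 21 of its 30 peaks in animal 1 and 19 of its 28 in animal 2 were at their promoters. Bad itself had 3 neighbouring peaks at its start, with heights of 7.16, 7.24 and 9.13 in animal 1 and 6.01, 8.01 and 10.6 in animal 2. All 3 also lie within 1 kb of a TSS of the adjoining Gpr137, and the one with the highest height overlaps one, so their heights cannot be given to Bad rather than Gpr137. Only 3 distal peaks in animal 1 and 4 in animal 2 remained, at 3.18 per 100 kb the lowest density of the 10. The Esrra promoter, 19.9 kb upstream, was the highest peak in any member's window, with heights of 28.8 in animal 1 and 32.2 in animal 2.

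**Figure D2:**
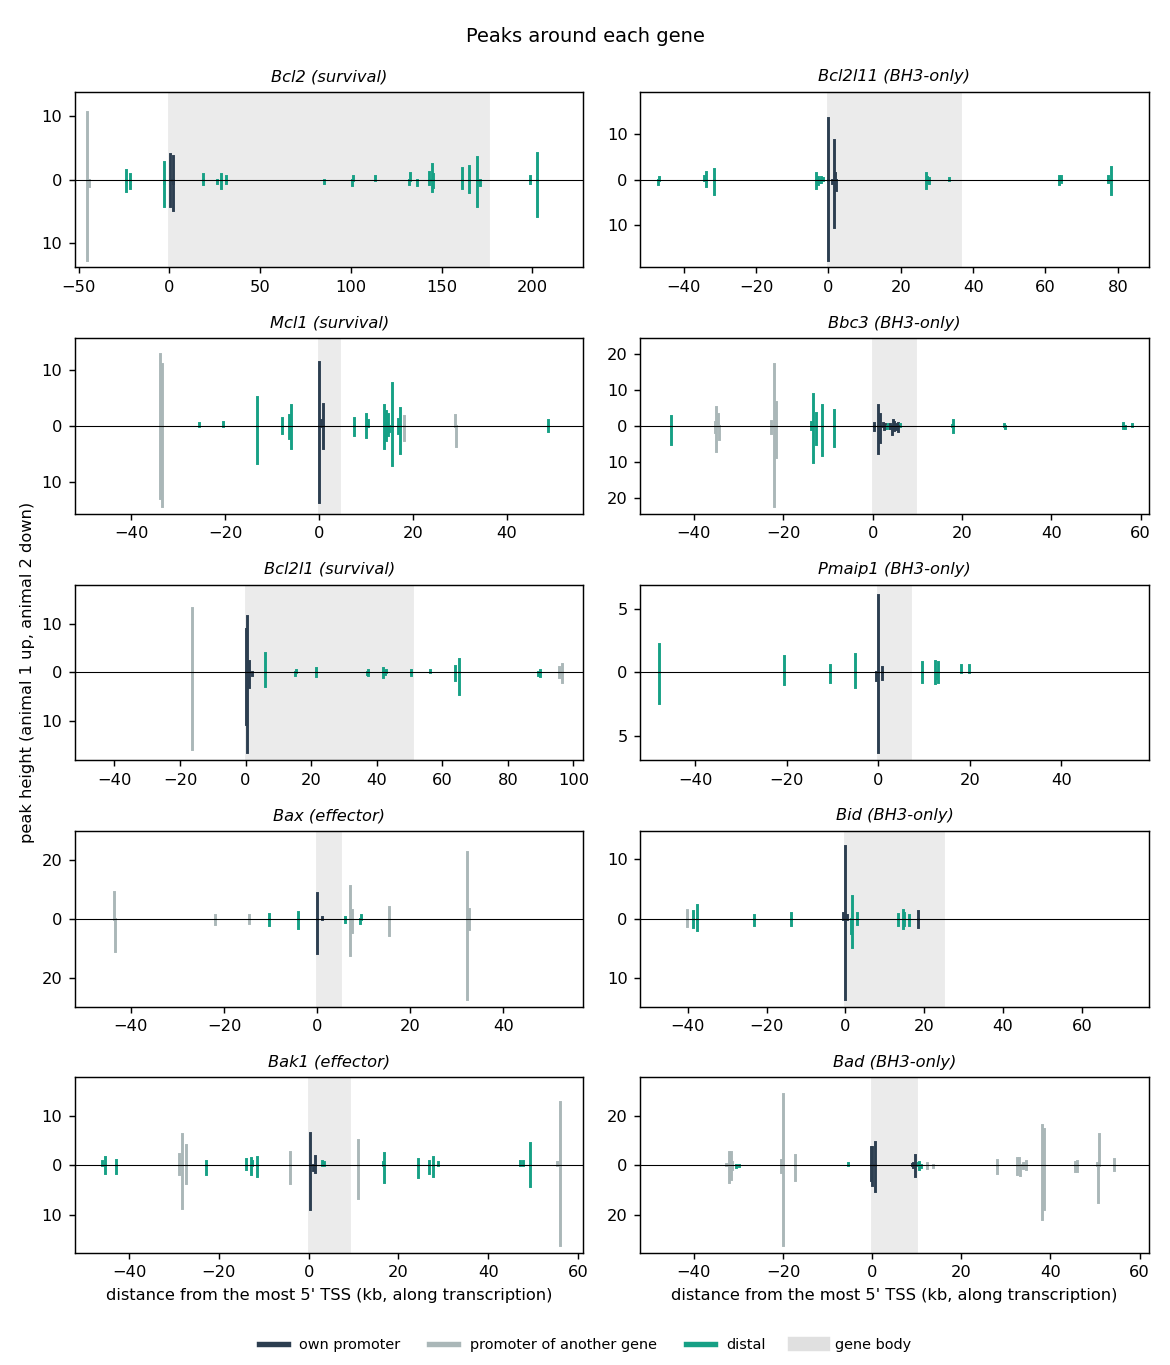
Peaks in each window by distance from the most 5′ TSS along the direction of transcription (x axis, kb), with height of animal 1 drawn upward and of animal 2 downward (y axis, authors' signal). Colours give own promoter, promoter of another gene and distal; grey shading is the gene body. The Mcl1 cluster downstream and the Bbc3 cluster upstream stand out among distal peaks, and Bax and Bad windows are led by neighbours' promoters.

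Counted over the family, the windows held 37 own promoter peaks in each animal, 51 and 50 at promoters of other genes, and 119 and 111 distal. In 3 members, Bcl2l11, Pmaip1 and Bid, the own promoter was the highest peak of the window in both animals. In 6 members, Bcl2, Mcl1, Bax, Bak1, Bbc3 and Bad, a neighbour's promoter was higher in both. For Bcl2l1 the Tpx2 promoter, with 13.3 in animal 1 and 15.8 in animal 2, was above the own promoter in animal 1 and below it in animal 2.

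**Figure D3:**
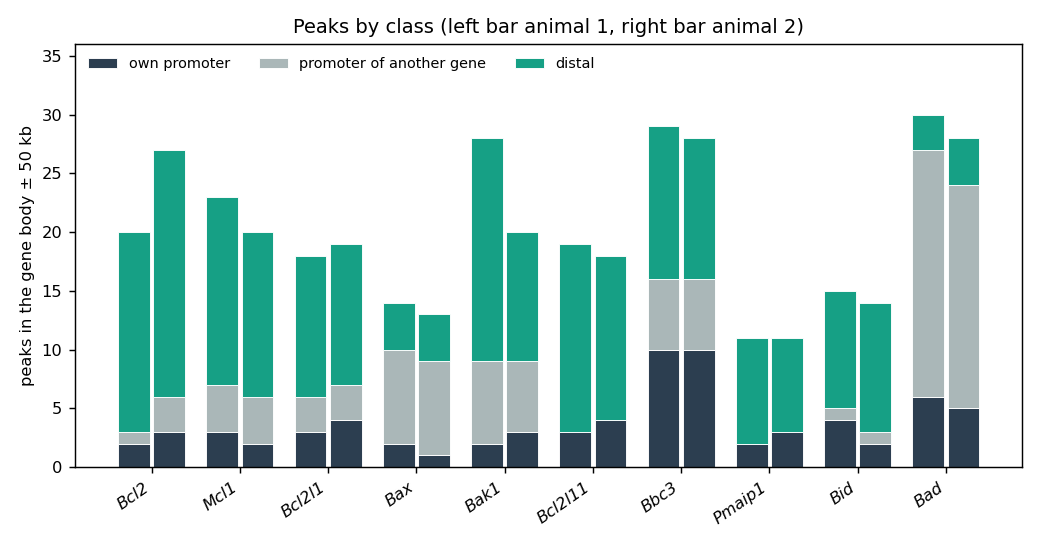
Number of peaks (y axis) in the gene body and 50 kb on each side, by class, with the left bar animal 1 and the right bar animal 2. Own promoter peaks are most numerous for Bbc3 (10 in each animal), neighbours' promoters for Bad (21 and 19), and distal peaks are fewest for Bad (3 and 4) and Bax (4 and 4).

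In the longer peak list, neither survival nor death genes had the higher density of distal peaks in both animals. The survival genes held 45 distal peaks in animal 1 and 47 in animal 2 in 531.5 kb, and the death genes held 74 and 64 in 802.7 kb. Per 100 kb that was 8.47 in animal 1 and 8.84 in animal 2 for the survival genes, and 9.22 in animal 1 and 7.97 in animal 2 for the death genes, so the order turned round between the animals. Per gene, the median was 16 distal peaks in animal 1 and 14 in animal 2 for the survival genes, and 10 in animal 1 and 11 in animal 2 for the death genes. All 10 members were above the median density of all protein-coding genes, with Bad closest to it at percentile 57.7.

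The sites were largely shared by the animals. The windows held 231 distinct sites, of which 172 had a peak in both animals, 35 in animal 1 only and 24 in animal 2 only. Own promoter peaks were found in the other animal at 86.5% in each animal, where the share over all promoter peaks was 85.3% for animal 1 and 82.7% for animal 2. Distal member peaks were found again at 78.2% for animal 1 and 85.6% for animal 2, where 72.1% and 76.9% of all distal peaks were. The shares of own promoter peaks are thus near those of all promoter peaks. The peaks of 1 animal alone were low, at median heights of 0.623 in animal 1 and 0.581 in animal 2. In 6 of those 35 and 7 of those 24, the other animal still had a deposited cut-rate interval at a false discovery rate under 0.05 there, where 12.6% and 22.6% of all lone peaks did.

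Between the animals, all 10 strongest own promoter peaks were lower in animal 1, as were 85.4% of genes open in both. Their log2 ratio ran from -0.49 for Bcl2l1 to -0.04 for Pmaip1, around the genome-wide median of -0.27. No member was over 2-fold from that median, where 0.587% of open genes were. Over the 172 shared sites the median log2 ratio was -0.23, and 118 of them were lower in animal 1. The median was -0.22 at own promoters, -0.34 at promoters of other genes and -0.12 at distal sites. Of the shared sites 2 were over 2-fold apart as deposited, both distal to Bak1, where 3.2% of all distal peaks of animal 1 found in animal 2 were. The site 26.9 kb downstream had heights of 0.759 in animal 1 and 1.55 in animal 2, and the site 22.8 kb upstream had 0.745 in animal 1 and 1.79 in animal 2. Relative to the median ratio of open genes neither was over 2-fold apart, and 2 others were, where 2.94% of all such distal peaks were. These were a Bcl2l11 site 77.3 kb downstream, with 0.759 in animal 1 and 0.435 in animal 2, and a Bbc3 site 56.1 kb downstream, with 0.924 in animal 1 and 0.543 in animal 2. All 4 had heights below 2 in both animals.

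**Figure D4:**
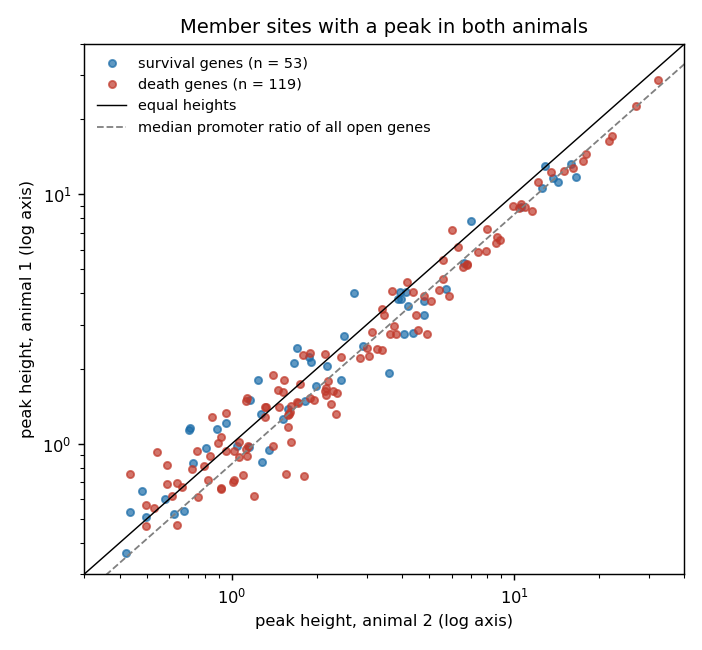
Height in animal 1 (y axis) against animal 2 (x axis), both on log axes, of the 172 sites with a peak in both animals, 53 of survival and 119 of death genes. The solid line marks equal heights and the dashed line the median ratio over 13116 open genes (-0.27 on the log2 scale). High sites lie along the dashed line and low sites scatter around both.

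The ratio between the animals differed with the letters a distal peak held. Among all 38120 distal peaks of animal 1 found in animal 2, the median log2 ratio was -0.19. It was -0.49 over 4347 peaks whose central 200 bp held the CTCF letters (CC, any 3 bases, AG, any 2 bases, GGC, any base, C), 0.08 over 2571 with the PU.1 letters and 0.11 over 822 with the OCT letters. These are 3 of 16 sets of letters found in a shared distal peak of a member. The members' sites are among these peaks, and their median lay on the same side of -0.19 as that of all peaks for 10 of the 16. It was -0.49 over 7 distal peaks with the CTCF letters, 0.24 over 11 with the PU.1 letters and 0.42 over 3 with the OCT letters. For 6 sets it lay on the other side: NFY at -0.13 over 22 member peaks and -0.21 over all, NRF1 at 0.26 and -0.31, YY1 at 0.11 and -0.29, CRE at -0.28 and -0.10, ETS at -0.40 and -0.17, and EBF1 at -0.20 and -0.08. Of these only NFY rested on more than 2 member peaks. The side depends on the reference, since the median over all shared distal peaks of the members was -0.12. Against that value NFY lay on the same side as over all peaks. E-box, at -0.188 over 8 member peaks and -0.170 over all, then lay on the other. A peak may hold several of these letters, and these groups of peaks were formed after the heights had been seen. The summed height of the 8 B cell marker promoters was 59.7 in animal 1 and 61.0 in animal 2, with 4 of 8 higher in animal 1, and that of the 7 T cell markers was 14.2 in animal 1 and 17.2 in animal 2, with 1 of 7 higher in animal 1 and Cd4 without a peak in both. Their part in these ratios was not tested.

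The footprints with CTCF letters are shown because the same letters recur at sites of 4 members. CTCF is the zinc finger protein known for anchoring chromatin loops. In distal member footprints the letters were found in 7 of 265 in animal 1 and 7 of 254 in animal 2, or 2.64% and 2.76%, where 3.38% and 3.96% of all distal footprints held them. Those found in both animals, with 1 in the Bbc3 promoter, follow with 5 bases on each side of the footprint of animal 1 and the matched letters in capitals, on the strand that holds them. Their regions were chr17:27001290-27001332 (-) and chr17:27002071-27002095 (+) for Bak1, chr7:16263173-16263215 (-) and chr7:16310113-16310149 (-) for Bbc3, chr1:106511757-106511794 (+) and chr1:106545020-106545059 (+) for Bcl2 and chr2:152766655-152766694 (-) for Bcl2l1.
Bak1, 27.7 kb downstream: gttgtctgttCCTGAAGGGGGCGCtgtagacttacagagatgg
Bak1, 26.9 kb downstream: atccttggtggCCAGAAGAGGGCGC
Bbc3, 45.2 kb upstream: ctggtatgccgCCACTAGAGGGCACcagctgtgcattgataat
Bbc3, 1.74 kb downstream: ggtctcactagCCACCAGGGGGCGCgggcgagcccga
Bcl2, 202.5 kb downstream: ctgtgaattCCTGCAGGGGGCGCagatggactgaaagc
Bcl2, 169.2 kb downstream: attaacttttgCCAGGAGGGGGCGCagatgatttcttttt
Bcl2l1, 65.1 kb downstream: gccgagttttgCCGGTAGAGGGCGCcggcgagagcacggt

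Each of these 7 sites, of which 6 are distal, was lower in animal 1, as were 90.8% of all shared distal peaks with the CTCF letters and 66.2% of all shared distal peaks. The count is therefore near that of other peaks with these letters. Those of Bcl2 had heights of 4.17 and 3.57 in animal 1 against 5.72 and 4.21 in animal 2. Those of Bbc3 had 2.74 and 3.28 in animal 1 against 4.90 and 4.47 in animal 2. The Bcl2l1 site had 2.77 in animal 1 and 4.37 in animal 2, and the Bak1 sites had 1.63 and 0.759 in animal 1 against 2.28 and 1.55 in animal 2.

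The members' peaks held 555 footprints in animal 1 and 552 in animal 2, of which 159 and 155 were in windows of survival genes and 396 and 397 in windows of death genes. The survival windows held fewer peaks, 61 and 66, than the death windows, 146 and 132. Per peak the footprints were 2.61 in animal 1 and 2.35 in animal 2 for survival genes, and 2.71 and 3.01 for death genes. A footprint lay in 30 of 37 own promoter peaks in animal 1 and 35 of 37 in animal 2, where 79.9% and 82.3% of all promoter peaks had one. Of distal peaks 103 of 119 in animal 1 and 97 of 111 in animal 2 had one, where 82.2% and 84.2% of all distal peaks did. The median footprint width was 14 bp in own promoter peaks of each animal, and 9 bp in animal 1 and 11 bp in animal 2 in distal ones. The share found again in the other animal was 65.8% for animal 1 and 69.1% for animal 2 in own promoters, where all promoter peaks gave 64.0% and 61.5%. In distal peaks it was 48.3% for animal 1 and 48.8% for animal 2, where all distal peaks gave 51.9% and 50.6%.

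Read in fixed 200 bp windows, the promoters and the distal sites of the family differed in letters as those of the genome did. The SP/KLF letters were in 18 of 37 own promoter peaks in each animal, or 48.6%, where 45.5% of all promoter peaks held them in animal 1 and 48.1% in animal 2. Of the strongest own promoter peak of each member, 8 of 10 in animal 1 and 7 of 10 in animal 2 held them, where 60.7% and 61.9% of the strongest own promoter peaks of all genes did. The members' own promoter peaks had median G and C shares of 65.5% in animal 1 and 64% in animal 2, where all promoter peaks had 62% and 63%. For the strongest peak of each gene the medians were 69.5% in animal 1 and 67% in animal 2 for the members, where those of all genes were 64.5% and 65.5%. At footprint level the difference was small, as 21.4% and 17.3% of own promoter footprints held the SP/KLF letters and 16.9% and 17.2% of all promoter footprints did.

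The other promoter letters named above were each in few footprints of the family. Of 117 own promoter footprints in animal 1 and 110 in animal 2, NFY letters were in 3 and 6, E-box letters in 3 and 3, ETS letters in 2 and 2, CRE letters in 2 and 1, IRF letters in 2 and 1, NRF1 letters in 1 and 1 and PU.1 letters in 1 and 1. Among all promoter footprints of animal 1 the shares were 4.14% for NFY, 2.36% for ETS, 1.90% for CRE, 1.31% for E-box, 0.982% for NRF1, 0.261% for PU.1 and 0.235% for IRF. OCT letters were in 0.283% of all distal footprints of animal 1 and 0.180% of animal 2. Counts this low cannot separate the members from the rest.

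At distal sites, E2A letters (CAGCTG) were in 29 of 119 windows in animal 1 and 31 of 111 in animal 2, or 24.4% and 27.9%, where 16.7% and 17.2% of all distal peaks held them. AP-1 letters (TGANTCA) were in 12.6% and 11.7% of member windows, where 7.0% and 6.3% of all did, and PU.1 letters in 11.8% and 9.91%, where 6.88% and 5.71% did. RUNX letters (TGNGGT) were in 44.5% and 45.9% of member windows, where 43.3% and 42.9% of all distal windows held them. Other letters were less common in member windows: CTCF letters were in 6.72% and 7.21%, where 9.05% and 9.88% of all held them, ETS letters in 0.840% and 1.80%, where 2.76% and 2.91% did, and IRF letters in 0.840% and 0.901%, where 3.27% and 2.66% did. In footprints, RUNX letters were in 22 of 265 distal footprints in animal 1 and 19 of 254 in animal 2, or 8.30% and 7.48%, where 6.45% and 6.34% of all distal footprints held them. Letters for NF-kB (GGGA, any base, TTTCC), FOXO (GTAAACA) and EBF1 (TCCC, any 2 bases, GGGA) were in no footprint of an own promoter or distal peak of the family. Nor was the p53 half-site pair, for which no mismatch was allowed. All of these were rare everywhere, the most common being EBF1 at 0.319% of all distal footprints in animal 1. Each of these counts says only which letters are in the windows searched.

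The rest of the pathway was read at its own promoters from lists of genes. Each count of open genes below stands beside 59.8% of all protein-coding genes open in both animals. Of 5 other survival genes of the family, 4 were open at the promoter in both animals. They were led by Bcl2a1b with heights of 4.74 in animal 1 and 3.70 in animal 2, Bcl2a1d with 1.99 in animal 1 and 1.34 in animal 2, and Bcl2a1a with 1.73 in animal 1 and 1.07 in animal 2. These Bcl2a1 genes are near-identical copies, so reads may be shared between them and their heights are uncertain. All 3 were higher in animal 1, unlike any of the 10 members. Bcl2l10 had no promoter peak in either animal.

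Of 9 other death genes, 8 were open at the promoter in both animals. Bnip3l, which works in the clearance of mitochondria, led with 20.2 in animal 1 and 22.7 in animal 2. Bmf, a BH3-only gene, had 9.64 in animal 1 and 9.89 in animal 2, and Bcl2l13 had 8.08 in animal 1 and 8.27 in animal 2. Hrk, a BH3-only gene best known from neurons, had none in either animal. The list thus ran from closed to well above every one of the 10 members.

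Downstream of mitochondria, the list held the apoptosome, caspases and their regulators, inhibitors of apoptosis included. Of it 12 of 12 genes were open in both animals, with a median of 12.3 over their mean heights, against 9.97 for the 10 members. Apaf1, which forms the apoptosome, had 22.1 in animal 1 and 24.4 in animal 2. Cycs, the gene of cytochrome c, had 18.3 in animal 1 and 21.5 in animal 2, and Diablo, whose protein blocks inhibitors of apoptosis, had 13.4 in animal 1 and 18.3 in animal 2. Apaf1 and Cycs were above the highest member, Bcl2l11, in both animals.

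In the death receptor pathway 9 of 10 genes were open in both animals, at a median of 3.93, and Tnfrsf10b had a peak of 0.591 in animal 2 only. Traf2 had 17.5 in animal 1 and 20.1 in animal 2, Fadd had 10.3 in animal 1 and 11.1 in animal 2, and Ripk1 had 7.44 in animal 1 and 9.66 in animal 2. Of 12 factors known to act on the members, 12 were open in both animals, at a median of 6.78. Foxo3 had 14.3 in animal 1 and 16.01 in animal 2, Creb1 had 12.2 in animal 1 and 12.6 in animal 2, and Mdm2, the ligase that holds down p53, had 9.08 in animal 1 and 13.3 in animal 2.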

How the data were processed

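DNase-seq peaks, footprints and cut-rate intervals of 2 spleen libraries, 1 per animal and named by their biological replicate numbers, were used. Per the labels the assembly was mm10. Which aligner, peak caller and footprint caller made the files, and with which thresholds, is not given in the sources used here. Peak heights are a signal (coverage of DNase cuts), used as the authors deposited them. The deposited cut-rate intervals carry a q-value below 0.05. The deposited footprint files hold a constant in the p-value column, so footprints could not be ranked. The longer of the 2 deposited peak lists per library was used. All intervals were placed on GENCODE M21 and on the GRCm38.p6 reference of RefSeq, on chromosomes 1 to 19, X and Y.

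A peak was own promoter if it overlapped 1 kb on either side of any annotated TSS of its gene. Peaks of the animals overlapping by 1 bp were 1 site. Footprints counted where their midpoint lay in a peak. For 19 motifs, both strands were searched in footprints widened by 5 bp on each side and in 200 bp around peak midpoints. Matches had to be exact apart from the bases left open in the letters. Near matches were not counted, so a site without the letters may still hold a similar sequence. Ratios are log2 of animal 1 over animal 2, and past a 2-fold difference means relative to the median ratio of open genes, except where stated as deposited. Peak assignment and counts were tested on simulated data. Python 3.11.15, numpy 2.4.6, pandas 2.3.3, pysam 0.24.0 and matplotlib 3.10.9 were used.

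The members, gene lists and marker lists were chosen with earlier results of these data known. All 10 members are named. Of each other list, the 3 genes with the highest mean promoter height and up to 3 with no promoter peak in either animal are named. Genes are not replicates and the 2 animals form 1 group, so no p-value was computed and SDs (n = 2) describe these animals only. Alternatives were the shorter peak list, promoters of 500 bp or 2 kb on each side, the most 5′ TSS only, flanks of 25 or 100 kb, the higher 50% of peaks, TSSs of all gene types, heights scaled to the median peak, and each animal alone. Counting error was not modelled, because the cut totals are inferred from the heights.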

Additional observations from a re-analysis of the deposited data

How the results depend on the processing

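Of 86 values of the results set beside each alternative, 82 moved by less than 1.5 times for counts or by less than 1 SD between the animals for heights. Many of the 86 could not move. Footprint counts do not depend on the promoter width, the TSSs used or the scaling, and heights do not depend on the flank. The count of 82 is therefore no measure of stability. Counts of distal peaks, as the mean of the animals, depended on the list and the window. The survival genes had 46 distal peaks, against 27 with the shorter peak list and 27.5 with the higher 50% of the peaks. The death genes had 69, against 51 with the shorter peak list, 108 with flanks of 100 kb and 37.5 when only the higher 50% of peaks were kept. With the shorter list the survival count thus changed by more than 1.5 times and the death count by less. The comparison of their densities therefore holds for the longer list only. Setting aside the flanks, the TSSs of all gene types and each animal alone, 6 alternatives gave 60 heights of single members. Of these 59 stayed within 1 SD. The exception was Bbc3, at 6.65 with every annotated TSS and 1.01 with the most 5′ TSS only, by construction, since its strongest peak lies at an internal TSS. Under that setting Bbc3 and not Bcl2, at 4.09, had the lowest promoter. Changing the flank or the set of other genes' TSSs cannot move an own promoter height, so those settings say nothing about it, and with 2 animals leaving out 1 always moves a mean by less than 1 SD. Keeping the higher 50% of peaks could not move a member's height either, since each strongest own promoter peak was above the median peak. Scaling to the median peak raises the heights of animal 1 and lowers those of animal 2, so it changes their mean little. The shorter peak list and the promoters of 2 kb left the height of every member unchanged. The count of 59 is therefore no measure of stability either. With 1 animal left out, a ratio between animals and its 2-fold count cannot be computed. No paired analysis was possible because both animals belong to 1 group. Peaks of members listed in 1 animal only had median heights of 0.623 in animal 1 and 0.581 in animal 2, against 0.888 and 1.05 over all peaks, and whether depth kept them out of the other list was not tested.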
